A study of Mus musculus with 6 samples.

Results

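The comparison described here set the CPN-/- CRY1 line directly against the CPN-/- CRY2 line, with 2 mRNA-seq libraries each, so that 4 of the 6 libraries of the series were compared. Both lines derive from CPN-/- mouse embryonic fibroblasts (MEFs), cultured fibroblasts that lack both alleles of Cry1, Cry2, Per1, Per2, Nr1d1 and Nr1d2, and both therefore carry all of these deletions. The CRY1 line had exogenous CRY1 and the CRY2 line exogenous CRY2, each delivered by a retroviral vector in which a viral promoter drives the CRY. The 2 libraries of the parental CPN-/- line entered the same fit and are given beside the CRY lines where they help. Each CRY line was grown from a single blasticidin-resistant colony, so the CRY that was expressed and the clone cannot be told apart. Each line gave 2 libraries from separate RNA preparations of nearly confluent cultures. The p-values therefore measure the spread between preparations of the same line and not between clones. This spread was estimated over all 3 lines together, with CPN-/- included.

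CRY1 and CRY2 are the strong repressors of the mammalian clock. They bind CLOCK and BMAL1, the activator pair that recognises E-boxes, and reduce transcription of genes such as Per1, Per2, Dbp and the CRY genes themselves. In these cells the partner repressors PER1 and PER2 and the heme receptors NR1D1 and NR1D2, which repress Bmal1 through ROR elements, are absent as functional proteins, although transcripts of the disrupted genes can still be counted. Fibroblasts also carry an interferon response that acts through factors of the IRF family at interferon-stimulated response elements (ISREs), a class I antigen presentation program driven by NLRC5, and a contractile program that serum response factor drives through CArG boxes.

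Stretches upstream of 8 genes that differed between the lines are shown because each holds one of the elements just named. They are from RefSeq (GRCm38.p6), lie within the 250 bases before a transcript start of the RefSeq promoter table, and are written 5′ to 3′ on the strand of the gene with the element in capitals. For Per1, Ciart, Ddx60 and Oas1a that start is not the outermost of the annotated gene, and the Per1 stretch lies wholly inside the gene, upstream of an internal start. The first 4 hold the E-box CACGTG: Per1 at chr11:69098748-69098823 (plus strand), Ciart at chr3:95882232-95882307 (minus strand, where 2 of its 3 E-boxes lie), the first listed start of Tef at chr15:81802511-81802586 (plus strand) and Bhlhe41 at chr6:145865533-145865608 (minus strand). The next 3 hold the ISRE core, written here as GAAA, any 2 bases and GAAA again: B2m at chr2:122147513-122147592 (plus strand), Ddx60 at chr8:61928033-61928086 (plus strand) and Oas1a at chr5:120907526-120907574 (minus strand), where 2 matches overlap. The last is the CArG box of Acta1 at chr8:123894804-123894883 (minus strand).
Per1: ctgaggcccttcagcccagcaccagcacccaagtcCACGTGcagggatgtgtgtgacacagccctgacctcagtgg
Ciart: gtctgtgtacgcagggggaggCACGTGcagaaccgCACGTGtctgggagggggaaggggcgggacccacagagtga
Tef: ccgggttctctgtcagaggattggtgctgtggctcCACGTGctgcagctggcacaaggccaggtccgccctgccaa
Bhlhe41: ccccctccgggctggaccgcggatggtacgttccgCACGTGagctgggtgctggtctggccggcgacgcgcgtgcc
B2m: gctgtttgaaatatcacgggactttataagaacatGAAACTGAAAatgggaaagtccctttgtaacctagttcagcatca
Ddx60: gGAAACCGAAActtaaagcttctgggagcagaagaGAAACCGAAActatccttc
Oas1a: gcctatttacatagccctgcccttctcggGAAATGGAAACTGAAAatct
Acta1: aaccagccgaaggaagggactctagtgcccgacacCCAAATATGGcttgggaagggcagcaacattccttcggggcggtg
The windows of 300 bases from RefSeq (250 before and 50 after the start) were found for 10411 of the 14069 tested genes (74%). Both strands were searched, and the palindromic E-box reads the same on each. CACGTG stood in 11.6% of all these promoters, against 9.7% of the genes higher in the CRY1 line and 9.94% of those lower in it, counted off the 4 chromosomes set apart below. The ISRE core stood in 3.58% of all, 4.41% of the higher and 5.16% of the lower genes, and the CArG box in 1.58%, 2.12% and 1.72%. Across the whole set of differing genes the shares thus lay close to those of all promoters.

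The 4 libraries of the CRY lines held 27222231 to 36106949 counts and the 6 together 25957409 to 36106949. In all, 14069 genes passed the filter on low counts, and differences are given as log2 fold changes of the CRY1 line over the CRY2 line with their standard error (SE). The edgeR quasi-likelihood test called 2292 of the 14069 (16.3%) at a Benjamini-Hochberg adjusted p under 0.05, of which 1086 (7.72%) were higher and 1206 (8.57%) lower in the CRY1 line. The 4 chromosomes 3, 15, 16 and 19 held 800 of these calls among 2062 genes (38.8%) and are reported apart. Off them, 1428 of 11282 genes were called (12.7%), with 716 higher (6.35%) and 712 lower (6.31%), and 621 of the 1428 differed at least 2-fold. The shares of 6.35% and 6.31% are the background for every list count off the 4 chromosomes below, and no list was tested against them. Without any 1 of the 4 CRY libraries the calls in all fell to 475 to 495, and without either CPN-/- library they came to 6897 and 6878. The 2 CPN-/- libraries differed from each other far more (chi-square per degree of freedom 66.0) than those of the CRY1 line (4.98) and of the CRY2 line (9.99), and this spread was shared by the fit.

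Fibroblast markers were abundant in both lines. Col1a1 had 78064 to 107128 counts and Vim 90719 to 125266 in the 4 CRY libraries, and 10 of the 11 fibroblast markers were tested, Thy1 being at 1 to 6 counts. Of the 10, Pdgfra (log2 −1.42 ± 0.14 SE, adjusted p = 0.00135) and Col1a2 (−0.65 ± 0.17, adjusted p = 0.0453) were lower in the CRY1 line and none was higher. None of 10 epithelial markers passed the filter, with Epcam at 0 in all libraries, but Krt14 (22 counts), Krt5 (13 counts) and Krt18 (9 counts) reached their highest level in CRY2 replicate 2. Myod1 and Pax7 of muscle, Ptprc and Cd3e of leukocytes, Adipoq and Pparg of fat and Pou5f1 and Sall4 of pluripotent cells were between 0 and 2 counts in the CRY libraries. A few other markers were detected at low counts, such as Lyz2 (31 to 153), Pecam1 (8 to 18), Vwf (18 to 62) and Nanog (2 to 13). Among the tested markers, 1 of 2 leukocyte genes was called higher in the CRY1 line, and 1 of 2 endothelial, 1 of 2 adipocyte, 1 of 4 chondrocyte and 2 of 4 osteoblast genes were called lower, while 0 of 4 neural, 0 of 1 muscle and 0 of 1 pluripotent genes were called. Over all tested genes 7.72% were called higher and 8.57% lower. The adipocyte gene Cebpa had 3 and 1 counts in the CRY1 line and 0 and 0 in the CRY2 line, against 18 and 11 in CPN-/-. Its test cannot show whether it differs between the CRY lines. The part of these markers in the results was not tested. In bulk RNA, fewer cells of a type and less RNA per cell cannot be told apart.

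Whole chromosomes separated the lines. Over the tested genes of chromosome 3 the median log2 fold change was −0.40 and over chromosome 15 it was −0.43, whereas chromosome 16 stood at 0.35 and chromosome 19 at 0.46. In the CRY1 libraries taken singly, the median against the mean of the CRY2 libraries was −0.41 and −0.39 on chromosome 3, −0.43 and −0.44 on chromosome 15, 0.35 and 0.34 on chromosome 16, and 0.46 and 0.45 on chromosome 19, while the 2 CRY2 libraries lay within 0.01 of their mean on each. On chromosome 19, 91.6% of 474 genes were higher in the CRY1 line, and on chromosome 15, 87.0% of 530 genes were lower. The shift thus ran through most genes of these chromosomes and not through a few large changes. The other 15 autosomes and X had medians from −0.16 (chromosome 10) to 0.06 (chromosome 17). Against CPN-/-, which both comparisons share, the medians were −0.28 for the CRY1 line and 0.11 for the CRY2 line on chromosome 3, −0.36 and 0.05 on chromosome 15, 0.27 and −0.09 on chromosome 16, and 0.31 and −0.17 on chromosome 19.

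**Figure D1:**
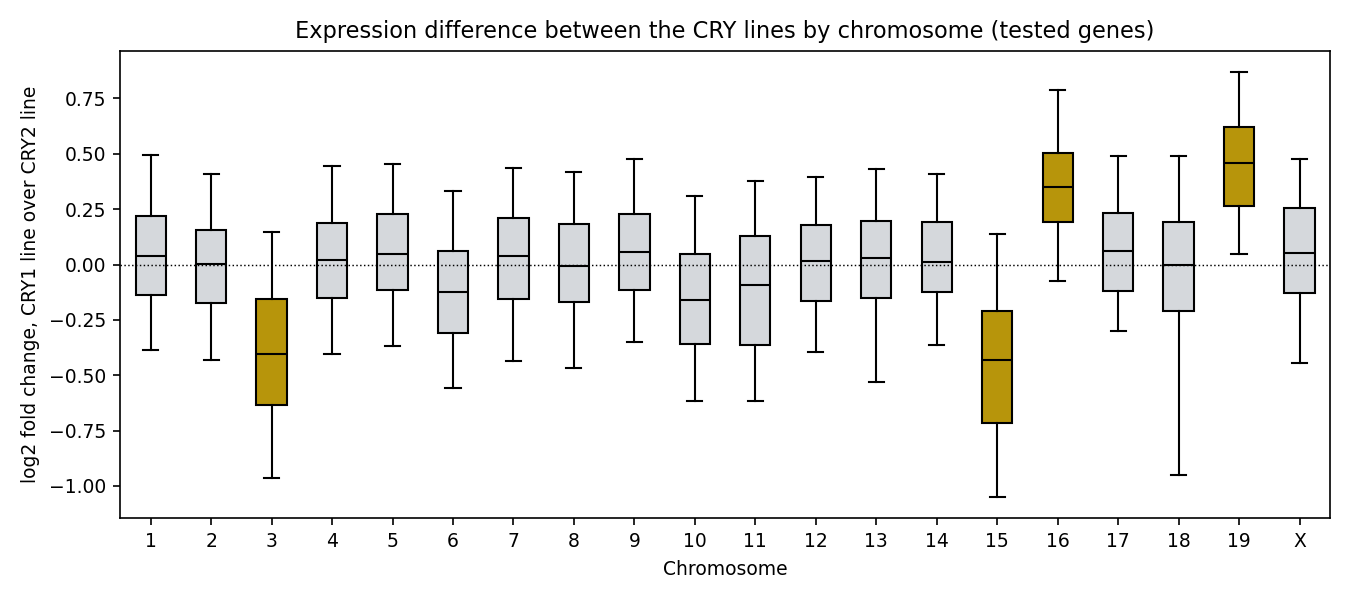
Log2 fold change of the CRY1 line over the CRY2 line for the tested genes of each chromosome, as boxes (quartiles with the median) and whiskers (10th to 90th percentile). The boxes of chromosomes 3 and 15 lie below 0 and those of 16 and 19 above 0, with medians of −0.40, −0.43, 0.35 and 0.46.

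The shift was not even along every chromosome. When the tested genes of a chromosome were divided by position into 10 parts of equal number, the first 5 parts of chromosome 15 had medians from −0.68 to −0.62 and the last 5 from −0.31 to −0.28. On chromosome 3 the first 9 parts lay between −0.60 and −0.33 and the last at 0.05. Chromosome 11, whose first 7 parts stayed between −0.04 and 0.04, stepped to −0.41, −0.40 and −0.40 in its last 3, and chromosome 10 went from 0.07 in its first part to between −0.22 and −0.12 in the rest. Chromosomes 16 and 19 had no such step. Genes on the last parts of chromosome 11 and on chromosomes 6 and 10 are therefore given below, where it changes the call, with the value after the median of each part was removed (regional correction), an alternative chosen after the data had been seen. Over all 14069 genes, 9.72% were called after the regional correction (5.34% higher and 4.38% lower), and 11.1% after removal of the medians of the 4 chromosomes alone (5.68% and 5.44%).

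**Figure D2:**
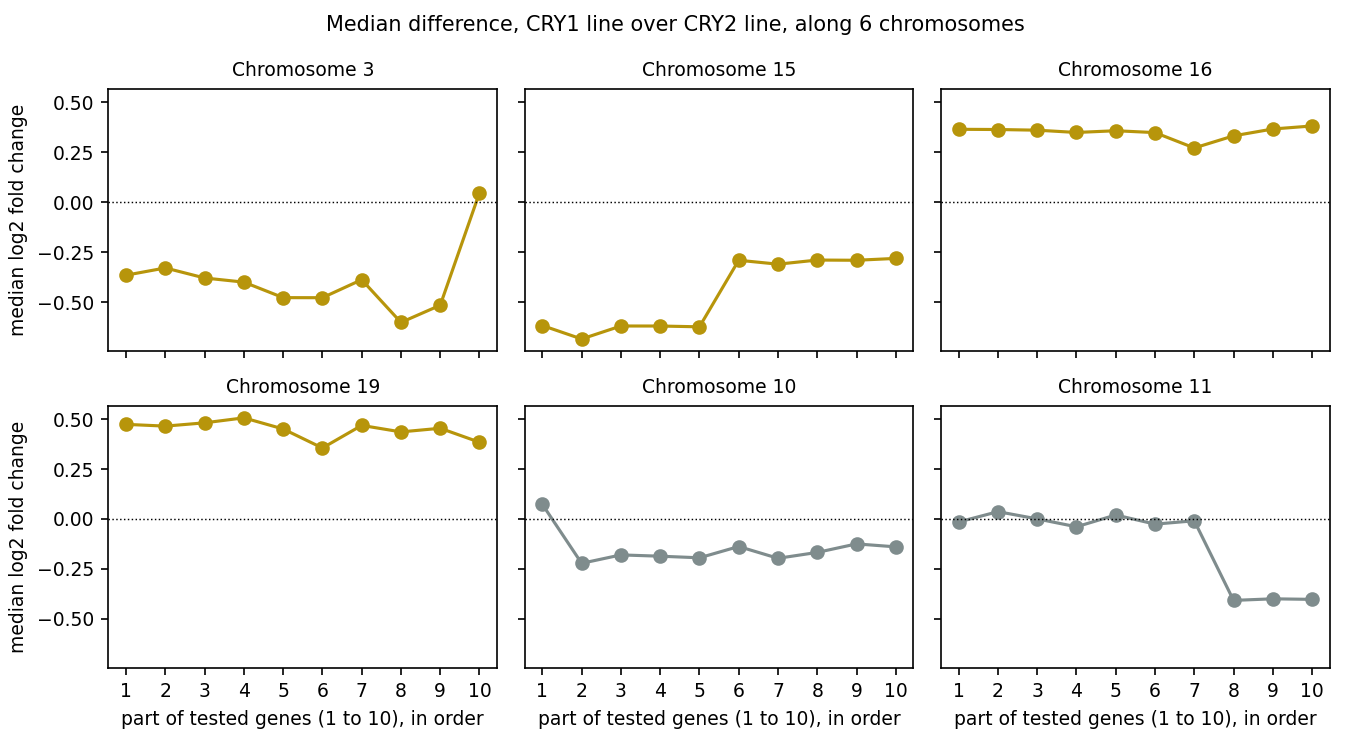
Median log2 fold change of the CRY1 line over the CRY2 line in 10 consecutive parts of the tested genes of 6 chromosomes, in order of position. Chromosome 15 steps from −0.62 to −0.29 between parts 5 and 6, and chromosome 11 drops to −0.41 after part 7.

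The 2 exogenous CRYs distinguished the lines in the direction of the labels. Cry1 (chromosome 10) stood at 165 and 189.6 CPM (read counts scaled to the size of the library) in the CRY1 line and at 51.0 and 48.3 in the CRY2 line (log2 1.84 ± 0.11 SE, edgeR adjusted p = 0.000324). Cry2 (chromosome 2) stood at 50.7 and 51.7 in the CRY1 line and at 349 and 351 in the CRY2 line (−2.77 ± 0.10, adjusted p = 8.58e-05). The libraries of the 2 lines did not overlap for either gene. In CPN-/- cells, whose disrupted loci still give transcripts, Cry1 had 125 and 115 CPM and Cry2 136 and 129, so that each CRY line lay below the parental libraries for the other CRY's transcript. The counts do not separate transcripts of the vector from those of the endogenous locus.

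All 3 Period transcripts were lower in the CRY1 line than in the CRY2 line, and those of the activators Bmal1 and Clock showed no difference that passed the test. Of 15 core clock genes off the 4 chromosomes, 2 were called higher (Cry1 and Npas2) and 6 lower (Cry2, Per1, Per2, Per3, Nr1d1 and Timeless), with a median log2 fold change of −0.12 beside −0.00017 over all genes off these chromosomes. The directions of Cry1 and Cry2 follow from the CRY given to each line and cannot be read as responses of the clock. Per2, a partner of CRY in the repressor complex whose gene is disrupted here, had 18.8 and 15.8 CPM in the CRY1 line and 38.8 and 41.3 in the CRY2 line (−1.21 ± 0.13, adjusted p = 0.00169). Per3, the intact Period gene, had 21.1 and 14.8 against 37.2 and 36.4 CPM (−1.04 ± 0.20, adjusted p = 0.0157). Per1 had 17.3 and 15.4 against 26.6 and 27.3 CPM (−0.72 ± 0.10, adjusted p = 0.00576). All 3 Period transcripts were highest in CPN-/- (49.0 to 90.4 CPM), and the CRY1 libraries were the lowest for each.

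Npas2, a paralog of Clock, went the other way, with 1.58 and 2.08 CPM in the CRY1 line and 0.367 and 0.222 in the CRY2 line (2.60 ± 0.33, adjusted p = 0.00329). Bmal1 (Arntl) had 52.8 and 56.2 CPM in the CRY1 line and 54.7 and 51.7 in the CRY2 line (0.03 ± 0.10, adjusted p = 0.867). Clock had 110.2 and 121 against 118 and 106 CPM (0.05 ± 0.21, adjusted p = 0.917), and the libraries of the lines interleaved for both activators. Nr1d1 was called by a small margin (−0.41 ± 0.10, adjusted p = 0.0399) and Nr1d2 was not (−0.12 ± 0.11, adjusted p = 0.490). The calls of Nr1d1 and of Timeless (chromosome 10, −0.41 ± 0.11, adjusted p = 0.0470) were lost after the regional correction, with adjusted p of 0.0601 and 0.195. The fold change of Nr1d1 stayed at −0.40 in that fit, and that of Timeless became −0.27.

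In a list of clock output genes drawn up around activation by CLOCK and BMAL1 at E-boxes, the calls were lower in the CRY1 line. Whether each member is activated through an E-box in these cells was not tested. Off the 4 chromosomes, 6 of 12 tested members of this output list were lower in the CRY1 line, none was higher, and their median was −0.49. Of all genes off these chromosomes, 6.31% were called lower and 6.35% higher. Hlf and Dbp encode PAR bZIP factors that carry the rhythm to further genes. Dbp had 14.97 and 11.1 CPM in the CRY1 line and 27.3 and 30.3 in the CRY2 line (−1.14 ± 0.16, adjusted p = 0.00566), and Hlf had 0.387 and 0.324 against 2.20 and 2.19 CPM (−2.60 ± 0.37, adjusted p = 0.00559). Bhlhe40 and Bhlhe41, which encode E-box repressors, were lower by similar amounts (−1.07 ± 0.13 and −1.02 ± 0.15, adjusted p of 0.00329 and 0.00639). Tsc22d3, a glucocorticoid-induced leucine zipper gene, and Wee1, a kinase gene that restrains entry into mitosis, completed the 6 (−0.77 ± 0.11 and −0.41 ± 0.10).

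Nampt, Por, Coq10b, Nfil3, Tspan4 and Usp2 had log2 fold changes between −0.57 and 0.26 with adjusted p of 0.0612 or more. With the chromosome 3, 15 and 19 members added, 15 genes of the clock and output lists were lower in the CRY1 line, including Cry2, the gene of the CRY2 vector. That count was 13 after the regional correction. It was 8 and 6 without CRY1 replicate 1 or 2, and 8 and 7 without CRY2 replicate 1 or 2. Cry1, Cry2, Per2 and Bhlhe40 were called in all 17 alternative fits. Of the lower genes with a promoter in the RefSeq table, CACGTG stood in 2 of 7 core clock genes (Per1 and Ciart) and in 2 of 5 output genes (Tef and Bhlhe41), beside 11.6% of all promoters. The output list was drawn up around E-boxes, and the share among members of the 2 lists that were not called was not counted. These shares therefore do not link the element to the calls.

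**Figure D3:**
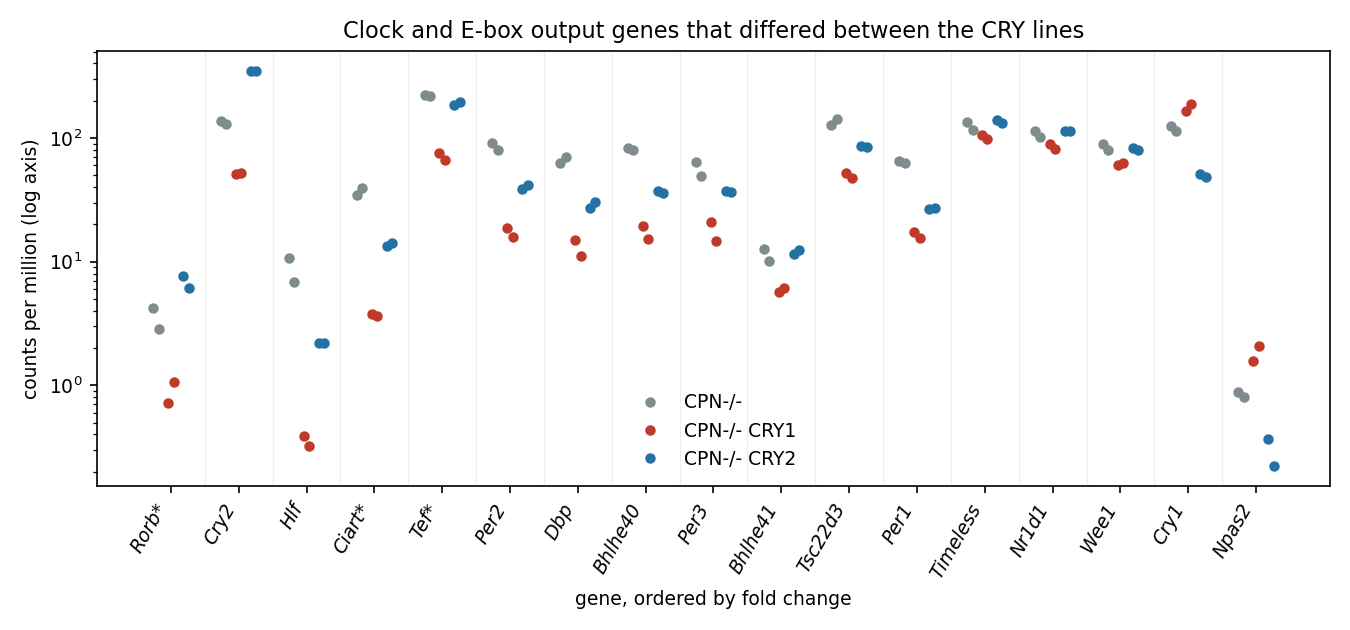
Expression in CPM, on a log axis, of the clock and E-box output genes called between the lines, with 1 point per library for CPN-/-, CPN-/- CRY1 and CPN-/- CRY2. An asterisk marks genes on chromosomes 3, 15, 16 or 19. The 2 CRY1 libraries lie below the 2 CRY2 libraries for every gene shown except Cry1 and Npas2.

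Interferon-stimulated and class I antigen presentation genes were higher in the CRY1 line. Off the 4 chromosomes, 17 of 24 tested members were called higher and none lower, with a median of 0.73, where 6.35% of all such genes were called higher. Nlrc5, the transactivator of class I genes, had 21.4 and 21.0 CPM in the CRY1 line and 1.65 and 1.70 in the CRY2 line (3.65 ± 0.16, adjusted p = 0.000119). Its targets were higher too. H2-K1, a class I heavy chain, had 36.6 and 30.6 against 5.29 and 5.30 CPM (2.67 ± 0.14, adjusted p = 0.000273), and H2-D1 had 273 and 252 against 107 and 109 CPM (1.27 ± 0.11, adjusted p = 0.000719). B2m, the class I light chain, had 579 and 554 against 323 and 318 CPM (0.82 ± 0.11, adjusted p = 0.00426).

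The position of the parental cells differed between these genes. For H2-K1 (53.1 and 61.1 CPM in CPN-/-) they lay above both CRY lines, whereas for Nlrc5 (6.26 and 5.18 CPM) they lay between them. Class I heavy chain genes share much of their sequence, so that their counts depend on how reads with several matches were treated. Psmb8 and Psmb9, subunits of the immunoproteasome, and Tap1 and Tap2, which carry peptides into the endoplasmic reticulum, had log2 fold changes of 4.03 ± 0.39, 1.42 ± 0.27, 0.93 ± 0.13 and 0.74 ± 0.10, all called.

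Some sensors, transcription factors and effectors of the interferon response were called higher as well. Irf7, Usp18 and Oasl2 were higher by 1.02 ± 0.17, 1.13 ± 0.20 and 0.98 ± 0.23, the RNA sensor Ifih1 by 0.71 ± 0.12, and the transcription factor Irf9 by 0.54 ± 0.11. Ddx60, whose promoter holds 2 ISRE cores, had 3.29 and 2.79 CPM in the CRY1 line and 0.551 and 0.704 in the CRY2 line (2.27 ± 0.23, adjusted p = 0.00147). Isg15, with 24.99 and 18.4 against 28.7 and 35.8 CPM, did not pass (−0.57 ± 0.24, adjusted p = 0.166), nor did Stat2, Bst2, Ifi27, Irf1 or Igtp. Ifit1, Ifit3, Gbp2, Gbp3 and Gbp7, whose promoters hold the ISRE core, were not called higher either. On the 4 chromosomes 1 of 9 tested members was called higher and 2 lower, namely Mx1 and Ifi44. CRY1 replicate 1 was above CRY1 replicate 2 for Irf7 (44.6 and 33.1 CPM) and Usp18 (39.7 and 27.5 CPM), and both were above the CRY2 libraries.

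Over all chromosomes 18 members were called higher, 15 after the regional correction, 5 without CRY1 replicate 1, 11 without CRY1 replicate 2 and 5 without either CRY2 library. Psmb8, Nlrc5, H2-K1, Ddx60 and H2-D1 kept their call in each of these. The ISRE core stood in 13 of the 25 members with a promoter in the table (52%), and in 4 of the 14 called higher (B2m, Ddx60, Ifih1 and Oas1a).

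**Figure D4:**
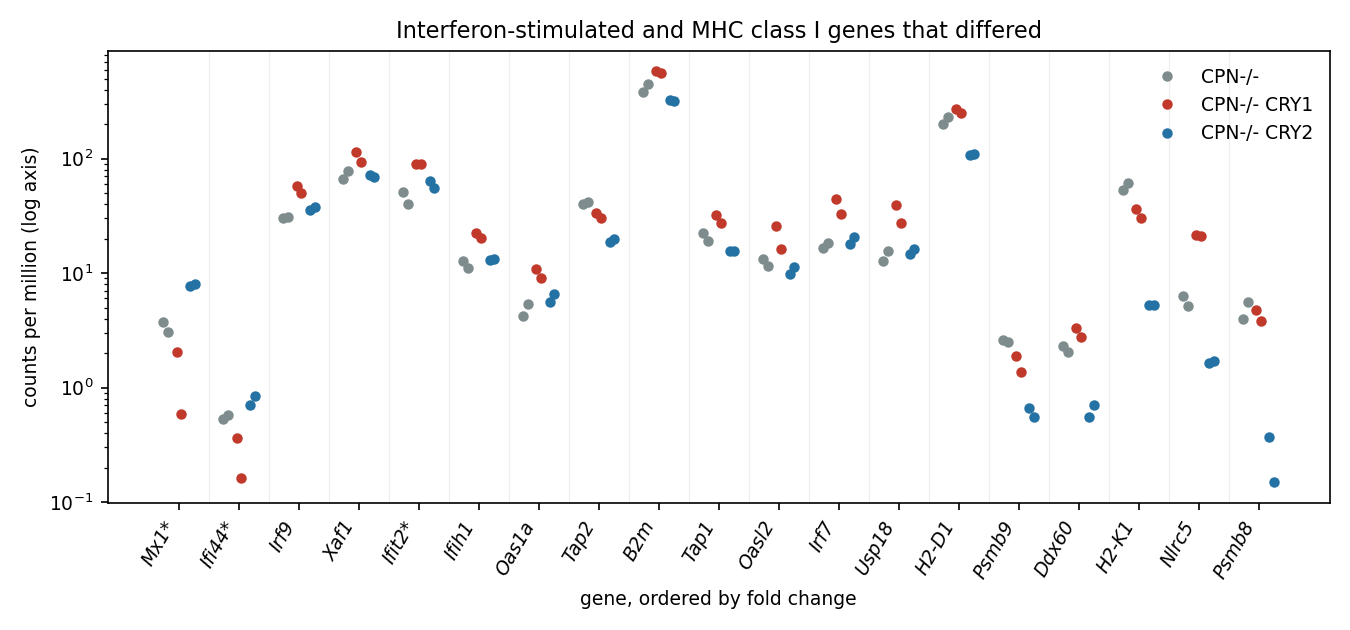
Expression in CPM, on a log axis, of 19 of the 20 interferon-stimulated and class I genes called between the lines, 1 point per library for each of the 3 lines. The CRY1 libraries lie above the CRY2 libraries for 17 genes and below them for Mx1 and Ifi44, both marked by an asterisk as genes on chromosomes 16 and 3.

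Contractile genes split. Off the 4 chromosomes, Acta1, Actg2 and Tagln were higher in the CRY1 line, Itga8 and Ryr3 lower, and 11 of 16 tested members were not called (median 0.19). Tagln, an actin-binding protein of smooth muscle, had 1078 and 1019.8 CPM in the CRY1 line and 299.9 and 327 in the CRY2 line (1.74 ± 0.18, adjusted p = 0.00146). Actg2, smooth muscle γ-actin, had 60.4 and 60.2 against 12.6 and 15.2 CPM (2.12 ± 0.16, adjusted p = 0.000533), and Acta1, whose promoter holds a CArG box, had 9.68 and 9.37 against 2.02 and 1.96 CPM (2.26 ± 0.15, adjusted p = 0.00036). Itga8, an integrin subunit of smooth muscle, had 9.24 and 8.86 against 32.4 and 31.7 CPM (−1.82 ± 0.20, adjusted p = 0.00222). CPN-/- had 2.92 and 4.07 CPM of Actg2 and 5.00 and 2.92 CPM of Itga8, so that the CRY1 line was highest for the first and the CRY2 line for the second.

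Among TGF-beta and BMP genes off the 4 chromosomes, 5 of 25 were higher and 4 lower in the CRY1 line (median 0.32). The shares over all such genes were 6.35% higher and 6.31% lower. Tgfb1, the ligand, had 14.8 and 16.1 CPM in the CRY1 line and 3.64 and 4.37 in the CRY2 line (1.95 ± 0.14, adjusted p = 0.000428). Smad7 and Smad6, inhibitory SMADs of the feedback loop, were higher by 0.91 ± 0.12 and 0.57 ± 0.11, whereas the receptor Tgfbr2 was lower (−0.72 ± 0.12) and Ltbp2, a latent TGF-beta binding protein, was lower by more (−1.70 ± 0.21, adjusted p = 0.00327). Notch3, a receptor of mural cells, was 1 of 12 Notch and Hedgehog genes called off these chromosomes, with 67.0 and 59.9 against 14.04 and 15.6 CPM (2.10 ± 0.22, adjusted p = 0.00177).

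Collagen and laminin genes were called in both directions, and 9 of 16 collagen chains off the 4 chromosomes were not called. Basement membrane collagen Col4a1 had 2602 and 2756 CPM in the CRY1 line and 1227 and 1105 in the CRY2 line (1.20 ± 0.20, adjusted p = 0.00975), and Col4a2, its partner chain, was higher by 0.90 ± 0.21. Col7a1, the chain of anchoring fibrils, was also higher (0.97 ± 0.15). The microfibrillar chains Col6a1 and Col6a2 (−0.90 ± 0.16 and −0.92 ± 0.17), Col18a1 (−1.38 ± 0.16) and Col1a2 were lower, which made 3 higher and 4 lower of 16 collagen chains off the 4 chromosomes (median −0.50). Col6a1, Col6a2 and Col18a1 lie on chromosome 10 and kept their call after the regional correction, and Col1a2 did not (adjusted p = 0.116). Laminin chains moved in opposite directions, with Lama5 at 7.53 and 7.56 against 0.514 and 0.408 CPM (4.02 ± 0.42, adjusted p = 0.00166) and Lama4 at 2.30 and 2.01 against 66.8 and 68.6 CPM (−4.97 ± 0.29, adjusted p = 0.000324).

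The small leucine-rich proteoglycan genes Aspn, Ogn and Dcn were lower in the CRY1 line. Aspn, asporin, had 27.0 and 20.4 CPM in the CRY1 line and 302 and 346 in the CRY2 line (−3.77 ± 0.20, adjusted p = 0.000273), with 98.7 and 75.3 in CPN-/-. Ogn, osteoglycin, had 108 and 96.0 against 459 and 491 CPM (−2.22 ± 0.12, adjusted p = 0.000273). Dcn, decorin, was scarce in all libraries and had 0.166 and 0.0324 against 2.24 and 2.19 CPM (−4.36 ± 0.43, adjusted p = 0.00133). Bgn, biglycan, a more abundant proteoglycan gene of this family, was not lower. It had 1968 and 1912 against 1663 and 1603 CPM and was not called (0.25 ± 0.12, edgeR adjusted p = 0.234). Lum was not tested. In the matricellular and fibroblast matrix list off the 4 chromosomes, 5 of 21 were lower and 2 higher, with a median of 0.02. Among proteases and their inhibitors 2 of 17 were higher and 2 lower, with Adamts2, which trims procollagens, at 2.42 ± 0.20 and the stromelysin Mmp3 at −2.56 ± 0.21. Over all such genes 6.35% were higher and 6.31% lower, and whether either list departs from these shares was not tested.

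WNT ligands, receptors and modulators were called in both directions, with more of the calls lower in the CRY1 line. Off the 4 chromosomes 6 of 17 were lower and 2 higher (median −0.33), beside 6.31% and 6.35% of all such genes. Wnt5a, a ligand of the noncanonical branch, had 105 and 96.1 CPM in the CRY1 line and 280.5 and 276 in the CRY2 line (−1.47 ± 0.16, adjusted p = 0.00172), and Wnt5b had 1.63 and 1.33 against 8.78 and 7.78 CPM (−2.47 ± 0.17, adjusted p = 0.000391). Notum, a secreted WNT deacylase, and the receptor Fzd2 lie on the shifted end of chromosome 11, and their differences of −1.77 ± 0.11 and −1.02 ± 0.09 were −1.36 and −0.61 after the regional correction, both still called. Rspo3, which amplifies WNT signals, had 0.111 and 0.0324 against 1.80 and 2.41 CPM (−4.74 ± 0.42, adjusted p = 0.000893). Wnt4 was higher in the CRY1 line, with 30 and 20 counts against 1 and 1, a ratio of 20.2 (95% counting interval 5.32 to 172).

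Growth factor genes were called in both directions, 5 higher and 8 lower of 25 off the 4 chromosomes (median −0.05). All genes off these chromosomes had 6.35% higher and 6.31% lower. Fgf10, a mesenchymal ligand, had 15.7 and 17.5 CPM in the CRY1 line and 46.4 and 43.8 in the CRY2 line (−1.44 ± 0.15, adjusted p = 0.00169), and the receptor Pdgfra had 34.6 and 31.8 against 87.7 and 89.4 CPM. Igfbp7, an IGF-binding protein, had 223 and 214 against 68.6 and 70.3 CPM (1.65 ± 0.11, adjusted p = 0.000391). Guidance cues were as mixed, with 5 of 25 higher and 5 lower. The netrin Ntn1 had 4.37 and 4.61 against 0.514 and 0.445 CPM (3.21 ± 0.23, adjusted p = 0.000421), and the semaphorin Sema3c had 57.4 and 57.8 against 214 and 211 CPM (−1.88 ± 0.15, adjusted p = 0.000628).

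Positional and patterning genes were called in both directions, with more of the calls higher in the CRY1 line. Off the 4 chromosomes, 3 of 8 tested HOX genes (Hoxa4, Hoxa7 and Hoxa10) were higher and none lower (Hoxa4 had the same fold change but an adjusted p of 0.0622 after the regional correction), and 13 of 43 patterning transcription factors were higher and 4 lower, with medians of 0.32 and 0.05. The background shares were 6.35% higher and 6.31% lower. Hoxa10 had 34 and 32 counts in the CRY1 line and 1 and 0 in the CRY2 line, a ratio of 53.4 (95% counting interval 9.26 to 2141). Gata4, a cardiac and endodermal factor, had 40 and 31 counts against 0 and 1, a ratio of 57.5 (9.99 to 2301), at about 1 CPM. Lhx2 (3.26 ± 0.27) and Ebf1 (2.03 ± 0.22) also differed by over 2-fold, while most of the other higher patterning genes, among them Msx1, Msx2, Tbx3, Tbx18 and Pax3, differed by 0.43 to 0.70. After the regional correction 7 of the higher patterning genes remained called. Eya4, a coactivator of limb and ear development, was the most strongly lower of the list, with 18.1 and 15.5 against 78.1 and 79.5 CPM (−2.23 ± 0.24, adjusted p = 0.00184).

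Imprinted genes and cadherins were called in 1 direction only. Among 20 tested imprinted genes, all off the 4 chromosomes, 6 were lower in the CRY1 line, 5 of them also after the regional correction, and none was higher (median −0.36). Over all genes off these chromosomes 6.31% were lower and 6.35% higher. Plagl1, a zinc finger gene of the imprinted growth network, had 32.1 and 28.1 CPM against 66.0 and 65.9 (−1.13 ± 0.17, adjusted p = 0.00639), Peg10 had 16.4 and 18.5 against 42.5 and 40.7 CPM (−1.25 ± 0.21, adjusted p = 0.0097), and Igf2 had 1.44 and 1.52 against 4.19 and 6.74 CPM (−1.88 ± 0.34, adjusted p = 0.0123). H19, among the tested, had only 3 and 4 counts in the CRY1 line and 5 and 8 in the CRY2 line, against 442 and 397 in CPN-/-. The remaining 18 of the 38 listed were not tested, with at most 4 counts in any library. Of 13 cadherins and protocadherins off the 4 chromosomes 5 were lower and none higher (median −0.26). Over all chromosomes 7 of 15 were lower, and 4 after the regional correction. Pcdhb17, Pcdhb22 and Pcdhga1, all among the lower genes, lie on chromosome 18, whose part 5 had a median of −0.30. That part held 36 tested genes with starts from 36766528 to 37955054, and parts 4 and 6 had medians of 0.003 and 0.12. Whether the median of part 5 is a regional shift or the difference of its own genes was not tested, and the correction removes both. Cdh11, the mesenchymal cadherin, had 17.7 and 16.4 against 33.8 and 39.0 CPM, below the 137 and 100.01 of CPN-/- (−1.09 ± 0.17, adjusted p = 0.0075).

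Pdk1 and Ldhb, which bear on the fate of pyruvate, were lower in the CRY1 line. Pdk1, the kinase that inactivates pyruvate dehydrogenase, had 29.4 and 27.6 CPM in the CRY1 line and 56.8 and 63.3 in the CRY2 line (−1.07 ± 0.10, adjusted p = 0.00112), and 158 and 163 in CPN-/-. It was called in all 17 alternative fits. Ldhb had 3.60 and 3.18 against 9.74 and 9.93 CPM (−1.53 ± 0.19, adjusted p = 0.00336), and Ldha, with 677 and 656 against 936 and 1016 CPM, missed the threshold (−0.55 ± 0.15, adjusted p = 0.054) but was called in 7 of the 17 alternative fits, among them DESeq2 (adjusted p = 0.00921) and the replicate block (0.0394). Of 24 glycolytic genes off the 4 chromosomes 4 were lower and 2 higher (median −0.10), the higher being Pfkp (0.54 ± 0.09) and Eno2 (0.55 ± 0.12). Over all such genes 6.31% were lower and 6.35% higher. After the regional correction 2 members were lower and 2 higher over all chromosomes. Pfkl and Pdk4, on chromosomes 10 and 6, lost their calls after the regional correction, with adjusted p of 0.17 and 0.15. Gapdh stood at only 12.7 to 15.6 CPM in the CRY libraries (0.08 ± 0.14, adjusted p = 0.765). It has many near-identical pseudogenes and its count is uncertain.

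Among 18 targets of hypoxia-inducible factor outside glycolysis and off the 4 chromosomes, 7 were lower and 3 higher (median −0.33). Background shares were 6.31% lower and 6.35% higher. Car12, counted among the 18, had 3 and 1 counts in the CRY1 line and 0 and 0 in the CRY2 line, too few to show a difference. After the regional correction P4ha1, Ak4 and Lox of the lower and Plod2 of the higher genes were not called, with adjusted p of 0.0647 to 0.141. Ddit4, an inhibitor of mTORC1, had 49.5 and 42.6 CPM against 121 and 126 (−1.42 ± 0.11, adjusted p = 0.000642), and Vegfa, the angiogenic ligand, had 41.0 and 42.3 against 67.9 and 67.5 CPM (−0.70 ± 0.09, adjusted p = 0.00358). Adm, adrenomedullin, went the other way with 94.0 and 94.8 against 29.1 and 29.8 CPM (1.68 ± 0.11, adjusted p = 0.000365). Of 20 serine, one-carbon and amino acid genes under ATF4, 5 were lower and 1 higher (median −0.31). Chac1 and Trib3 differed by −0.78 ± 0.10 and −0.70 ± 0.13, and Shmt2, Mthfd2 and Asns, at −0.53, −0.53 and −0.43, lie on chromosomes 10 and 6 and were not called after the regional correction.

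Cell cycle, ribosome and respiration genes differed little. Off the 4 chromosomes 1 of 31 DNA replication genes was called higher (Rrm2, 0.43 ± 0.11), 1 of 28 mitosis genes lower (Top2a, −0.46 ± 0.12, on the shifted end of chromosome 11, at −0.06 and not called after the regional correction), and 0 of 31 cytosolic ribosomal protein genes and 0 of 29 nuclear genes of oxidative phosphorylation in either direction, with medians of −0.05, 0.00, −0.01 and −0.07. None of 13 tested chemokine genes was called, Cxcl12 having 121 and 132 against 136 and 137 CPM and Ccl2 34.97 and 35.1 against 22.6 and 27.6 CPM. Of the 13, Cxcl2, Cxcl5, Cxcl15, Ccl5 and Ccl20 had only 0 to 4 counts in each CRY library. They passed the filter through CPN-/-, so the test cannot show whether they differ between the CRY lines. Neither of the 2 tested Y-linked and X inactivation genes was called. Lists of cholesterol synthesis (1 higher and 0 lower of 18), ER chaperones (0 and 2 of 20), p53 targets (2 and 1 of 17), G1 regulators (1 and 2 of 21) and lipid storage (0 and 1 of 11) had few calls. NRF2 targets (2 and 2 of 21), immediate early genes (3 and 2 of 20), inflammatory genes (3 and 4 of 20), integrins (1 and 2 of 11) and nuclear receptors outside the clock (0 and 1 of 16) were called in both directions or singly. Among cAMP and prostaglandin genes 4 of 15 were lower, beside 6.31% of all such genes. They were led by Pde1a, a calcium-activated phosphodiesterase, with 0.194 and 0.324 against 3.75 and 4.78 CPM (−4.04 ± 0.36, adjusted p = 0.000893).

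**Figure D5:**
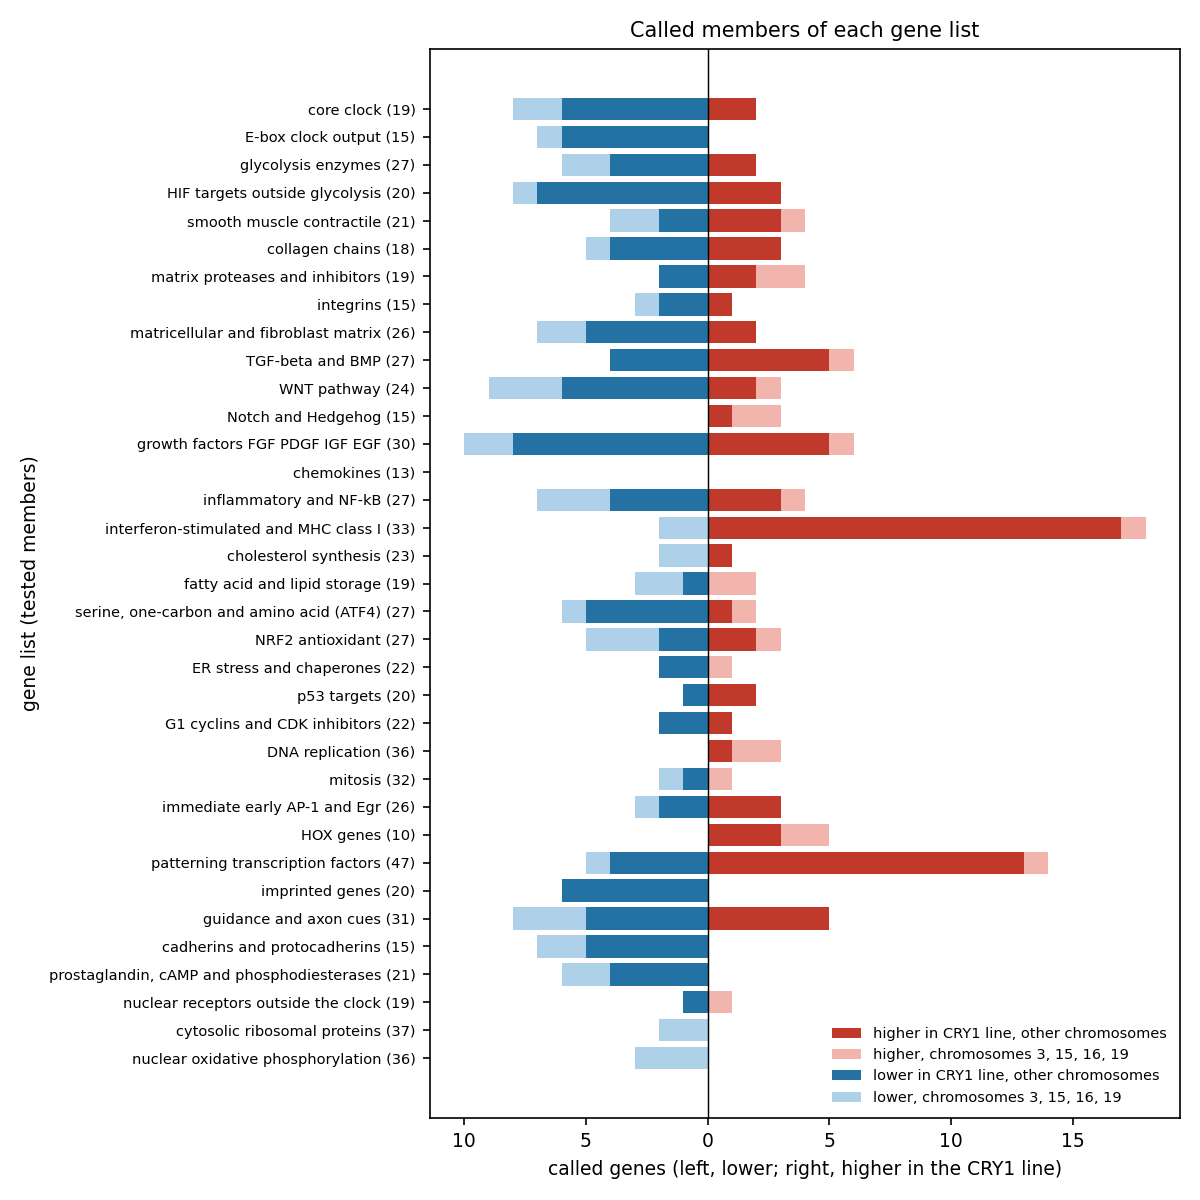
Number of called genes in each list with tested members other than markers and the Y-linked and X inactivation genes, lower in the CRY1 line to the left and higher to the right, with genes on chromosomes 3, 15, 16 and 19 in pale colour and the number of tested members in parentheses. The bar of 18 higher interferon and class I genes is the longest to the right, and the ribosomal protein and oxidative phosphorylation bars consist only of genes on the 4 chromosomes.

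The largest differences off the 4 chromosomes, with a mean over the 4 CRY libraries no lower than 100 counts, were near presence and absence. Platr7, a noncoding transcript on chromosome 10, had 636 and 636 counts in the CRY2 line, 1 and 1 in the CRY1 line and 0 and 0 in CPN-/-, a ratio of 786 between the CRY lines (95% counting interval 217 to 6496). In the opposite direction, Mdga1, a membrane-anchored regulator of synaptic adhesion, had 356 and 309 counts in the CRY1 line against 0 and 2, a ratio of 269 (74.2 to 2227), and 6530402F18Rik had 601 and 512 against 2 and 2.

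In all, 8 genes had at least 100 counts in both CRY1 libraries with at most 3 in either CRY2 library, and 2 had the reverse, namely Platr7 and Pmfbp1. Pmfbp1 had 178 and 205 counts in the CRY2 line against 1 and 0, a ratio of 473 (84.4 to 18739.97). For Cfap20dc, Usp13 and Scml2 the CRY2 libraries were at 0, and measured against a floor of 3 counts over the line they were at least 98.2-, 87.7- and 73.1-fold higher in the CRY1 line. Scml2 had 131 and 140 counts in the CRY1 line and 170 and 138 in CPN-/-, and Vat1l had 149 and 131 against 106 and 74, so that for these the CRY2 line was the exception. Intervals and floors cover counting error only.

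Further leading genes included some with cell surface, matrix and transport functions, among others. Higher in the CRY1 line were Aplp1, an amyloid precursor-like protein (15.3 and 13.4 against 0 and 0.148 CPM), Sirpa, the receptor of CD47 (16.5 and 14.01 against 0.367 and 0.445 CPM, 5.22 ± 0.22, adjusted p = 0.000121), and Daam2, a formin of WNT signalling (33.6 and 33.9 against 2.72 and 2.30 CPM, 3.75 ± 0.26, adjusted p = 0.000428). In CPN-/- Sirpa had 16.6 and 14.1 CPM, near the CRY1 line, so that the CRY2 line stood apart. Aplp1 (3.58 and 3.65 CPM) and Daam2 (5.82 and 3.22 CPM) lay between the CRY lines in CPN-/-. Asb2 had 14.1 and 14.9 against 0.992 and 0.815 CPM and was at 0.220 and 0.192 in CPN-/-. Also among the 15 with the largest positive values were Plekha2, Fsd1, Cracd, Pgap4, Ptprn, Sp100 and Jazf1, at 3.89 to 4.96. Of these, Fsd1 had 5.47 and 7.02 CPM in CPN-/-, near the 6.92 and 6.45 of the CRY1 line. Lower in the CRY1 line were Gas6, a ligand of TAM receptors (1.33 and 1.46 against 19.3 and 22.1 CPM, −3.89 ± 0.15, adjusted p = 8.64e-05), Sod3, extracellular superoxide dismutase (5.17 and 5.90 against 39.3 and 46.3 CPM, −2.95 ± 0.13, adjusted p = 0.000142), and the amino acid carrier Slc7a2 (0.802 and 0.649 against 7.02 and 6.49 CPM). Sorbs2, Fndc3c1, Abca9, D930015M05Rik, Smpdl3b, 9430018G01Rik, Abca8b, Maf and Tnn, at −4.80 to −3.04, completed the lower 15. D930015M05Rik lies within Cry2 on the opposite strand, and since the strand setting of the counting is not given, its reads and those of Cry2 cannot be told apart. Abca9 and Abca8b are neighbours on the shifted end of chromosome 11, and their −4.32 and −3.12 were −3.92 and −2.72 after the regional correction.

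On chromosomes 3, 15, 16 and 19 the calls followed the shift of the chromosome. On chromosome 3, 19 genes were higher and 218 lower in the CRY1 line, on chromosome 15 the counts were 17 and 217, on chromosome 16 they were 118 and 15, and on chromosome 19 they were 189 and 7. Once the median of each of these chromosomes was removed, 275 of the 2062 genes were called (13.3%), 151 higher (7.32%) and 124 lower (6.01%). With the medians of the 10 parts of each chromosome removed, 11.8% of the 2062 were called (6.55% higher and 5.24% lower). Some of the genes that stood beyond or against their chromosome, chosen by the rule for named genes, are given here, each with its value on the scale before that removal.

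Genes lower in the CRY1 line beyond the shift of chromosome 3 encoded matrix proteins, transporters and enzymes, among others. Col11a1, a fibrillar collagen chain of cartilage, had 10.9 and 8.27 CPM in the CRY1 line and 200.2 and 185 in the CRY2 line (−4.32 ± 0.24, adjusted p = 0.000273). Postn, periostin, had 584 and 478 against 2807 and 3210.1 CPM (−2.50 ± 0.16, adjusted p = 0.00035), with 526 and 437 in CPN-/-, so that the CRY2 line was the one that stood apart. Slc7a11, the cystine carrier under ATF4 and NRF2, had 6.97 and 7.98 against 34.9 and 32.3 CPM (−2.17 ± 0.20, adjusted p = 0.00105), and the glutathione transferase Gstm2 had 11.6 and 10.3 against 55.8 and 58.2 CPM (−2.38 ± 0.13, adjusted p = 0.000273). Ciart, which encodes a further repressor of CLOCK and BMAL1, had 3.79 and 3.60 against 13.5 and 14.1 CPM (−1.90 ± 0.13, adjusted p = 0.000371). S100a16 and Igsf10, at −3.42 ± 0.28 and −3.18 ± 0.32, were the others among the 6 largest decreases of the 4 chromosomes on chromosome 3. All 7 were called after the chromosome medians were removed. Vcam1, Tlr2, Gclm, Slc16a1 and Tbx15, at −0.49 to −0.70, were not.

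Against the direction of chromosome 3, Bmpr1b, a BMP receptor, had 212 and 210 counts in the CRY1 line and 0 and 1 in the CRY2 line, a ratio of 342 (61.0 to 13521). Hey1, a Notch target, was also higher (1.17 ± 0.30, adjusted p = 0.0393). Cth, the last enzyme of cysteine synthesis, had 45 and 41 counts against 1 and 1, a ratio of 34.8 (9.35 to 292), below the 11.4 and 12.7 CPM of CPN-/-. On chromosome 15 the glutamate carrier Slc1a3 had 6.61 and 5.77 against 198 and 189 CPM (−4.96 ± 0.17, adjusted p = 8.58e-05). Tef, a PAR bZIP factor with an E-box in its promoter, had 76.2 and 66.2 against 186 and 194 CPM (−1.42 ± 0.11, adjusted p = 0.000485), and the hypoxia target Ndrg1 had 38.0 and 34.6 against 88.1 and 90.7 CPM (−1.30 ± 0.10, adjusted p = 0.000545). Ranbp3l, also on chromosome 15, was lower by more (−3.41 ± 0.19).

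Against the direction of chromosome 15, Fzd6 (4.69 ± 0.28), Fbxl7 (4.11 ± 0.38), the HOX gene Hoxc13 (3.90 ± 0.19) and the ligand Pdgfb (2.71 ± 0.18) were higher in the CRY1 line, all with adjusted p of 0.00102 or less. Hoxc6, of the same chromosome, had 31 and 26 counts against 0 and 1, a ratio of 46.1 (7.95 to 1854). Pdgfb had 13.3 and 11.5 CPM against 1.87 and 1.89, with 8.52 and 10.7 in CPN-/-. Pfkm, Sqle, Rpl8, Ndufb9, Cox6c and Cyc1, on this chromosome as well, had −0.49 to −0.96 and were not called after the chromosome medians were removed, so that no ribosomal protein or respiratory gene of the lists was then called.

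On chromosomes 16 and 19 fewer genes stood out. Hes1, a Notch target on chromosome 16, had 22.8 and 24.0 CPM against 6.43 and 5.82 (1.93 ± 0.16, adjusted p = 0.0007), and the antiviral GTPase Mx1 went against its chromosome with 2.05 and 0.584 against 7.79 and 7.97 CPM (−2.54 ± 0.42, adjusted p = 0.00926). On chromosome 19, Ankrd1, a stretch-responsive gene, had 62.8 and 80.7 against 13.9 and 13.2 CPM (2.41 ± 0.15, adjusted p = 0.000342), and Acta2, smooth muscle α-actin, had 4230.2 and 4099 against 1842 and 2055 CPM (1.10 ± 0.14, adjusted p = 0.00329). Acta2 was still called after the medians were removed (adjusted p = 0.0288). Rorb, an orphan receptor of the clock family, was lower against its chromosome, with 0.719 and 1.07 against 7.64 and 6.11 CPM (−2.95 ± 0.29, adjusted p = 0.00133). Il33, an alarmin cytokine, was lower as well, with 1 and 0 counts against 12 and 14, a ratio of 32.1 in favour of the CRY2 line (5.28 to 1317). Rela, Pola2, Kif11, Esrra, Fads1 and Cpt1a, at 0.47 to 0.94, were not called once the medians were removed.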

How the data were processed

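The authors prepared stranded poly(A) mRNA libraries, sequenced them as paired-end reads, used STAR with mm10 and featureCounts for alignment and counting. Their deposited tables hold raw read counts for 27179 NCBI Gene identifiers, and strand setting and treatment of reads with several matches are not given in the sources used here. Symbols and positions came from RefSeq GRCm38.p6 (25275 identifiers) and GENCODE (17 more), and 722 tested genes had neither. All 6 libraries were fitted together in edgeR 4.0.16 (R 4.3.3) with filterByExpr (minimum count 10, minimum total 15), TMM factors, cell line as the only term, robust quasi-likelihood dispersions and two-sided tests adjusted by Benjamini-Hochberg over 14069 genes. The SE was recovered from the fold change and its F statistic. CPM use TMM-scaled library sizes. Fits were tested on simulated data. Alternatives were DESeq2 1.42.0, other scalings and filters, the 4 CRY libraries alone, a replicate block, each library left out, and removal of a length trend or of chromosome medians.

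The 36 gene lists and 10 marker lists, the comparison and its 4 chromosomes were chosen with earlier results of these data known. Genes were named by rule: 12 clock and glycolysis genes, the 15 largest changes per direction off and 6 on the 4 chromosomes (mean of at least 100 counts, all 4 library pairs in 1 direction), up to 6 called members per list and direction or else the 2 most abundant, and genes with at least 100 counts in one CRY line and at most 3 in the other. Other list members and markers, named to complete a count, were chosen after their values were seen, and a few genes that met the rule are not reported here. With 2 libraries per line no exact permutation test can pass the threshold.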

Additional observations from a re-analysis of the deposited data

How the results depend on the processing

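Of 259 named genes called, 115 were called in each of the 17 alternative fits that tested them; 144 lost the call without at least 1 of the 4 CRY libraries, where the lone library is assumed to vary like the other lines. Leaving out each library in turn gave 475 to 6897 calls (223 to 3472 higher, 222 to 3436 lower; 345 to 5039 off and 120 to 1596 on the 4 chromosomes), 86 to 516 called list members, 5 to 24 interferon and class I genes higher, 6 to 18 clock and output genes lower, and chromosome medians from −0.4232 to −0.3898 (3), −0.4467 to −0.4351 (15), 0.3408 to 0.3586 (16) and 0.4488 to 0.459 (19). The CRY libraries alone gave 6838 calls (3473 higher, 3365 lower; 4989 off, 1591 on; 509 list members). Removing the trend with transcript length, along which the CPN-/- replicates differed (Spearman 0.66 across 12478 genes, which are not independent), gave 4257 (2140, 2117; 2860, 1291; 401). Requiring a 2-fold change gave 828 (370, 458; 621, 182; 124; 8 interferon genes). Removing the 4 chromosome medians left 766 lower genes and 275 on these chromosomes, and removing the medians of the 10 parts of each chromosome left 1367 calls, 616 lower and 243 on them. Chromosome medians without the filter were −0.3649, −0.3971, 0.3366 and 0.4448, by DESeq2 −0.3665, −0.3986, 0.34 and 0.4453, and chromosome 16 with DESeq2 size factors 0.3555. Signs turned, at values near 0, for Arntl (−0.01026 to 0.0798) and Clock (−0.02919 to 0.1231), both negative without CRY1 or CRY2 replicate 2, Gapdh (−0.02347 to 0.1835), negative without CRY1 replicate 2 or CRY2 replicate 1, Tsix (−0.1093 to 0.1765), negative without CRY2 replicate 1 and with the replicate block (−0.004885), Ccna2 without the 4 medians (0.05124), and, without the medians of the parts, Clock (−0.05455), Cxcl12 (0.02701), Vcam1 (0.00929), Sqle (0.06964) and Mcm4 (−0.000776). Except for the last group, whose construction removes the regional value, the cause was not tested. The replicate block gave 2188 calls, and 2052 of the 2292 were shared. Replicate differences of the lines correlated at −0.08, 0.14 and −0.03, so that the numbers do not pair the samples.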
